A study of Homo sapiens with 15 samples.

Results

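The genes described here are the transcription factor *ATF4*, 5 genes of the response it drives (*DDIT3*, *TRIB3*, *CHAC1*, *SESN2* and *ASNS*), the 3 enzymes that make serine (*PHGDH*, *PSAT1* and *PSPH*) and the mitochondrial enzyme that uses it (*SHMT2*). They were taken by symbol, from a list drawn up with earlier results of these data known, and all 10 were among the 16296 genes measured in CAKi-1 and the 16188 measured in 786O, of which 15247 were shared. RNA-seq was performed on 15 libraries of these human clear cell renal cell carcinoma (ccRCC) lines, with 4 wild-type (WT) and 5 *ANGPTL4*-knockout (A4KO) libraries of CAKi-1 and 3 of each genotype of 786O. CAKi-1 carries wild-type *VHL* and 786O mutant *VHL*, and all cells were grown in medium with 10% serum, for which the labels give RPMI and the methods of the study DMEM. The A4KO cells of each line were CRISPR-Cas9 clones that had lost *ANGPTL4* and were then mixed. WT cells of 786O were mixed clones without the knockout, and the sources differ on whether the WT cells of CAKi-1 were the parental line or mixed clones. Loss of *ANGPTL4* and differences between the clones chosen cannot be told apart in this design. No label says that replicates are separate cultures, so p-values measure the spread between these libraries, which may be technical. *ANGPTL4*, which encodes a secreted inhibitor of lipoprotein lipase, was at 71.7 to 86.9 TPM (transcript abundance scaled for length and for the library total) in CAKi-1 WT and at 2.87 to 7.26 TPM in CAKi-1 A4KO, and at 17.6 to 20.6 TPM in 786O WT and 1.86 to 2.19 TPM in 786O A4KO.

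ATF4 is made when the initiation factor eIF2α is phosphorylated. Its kinases sense a lack of amino acids, unfolded protein in the endoplasmic reticulum, viral RNA or a lack of heme, and ATF4 then raises genes that import and make amino acids, charge tRNAs, fold proteins and, under lasting stress, promote cell death. Serine is made from the glycolytic intermediate 3-phosphoglycerate by PHGDH, PSAT1 and PSPH in turn, and SHMT2 splits it in mitochondria into glycine and a one-carbon unit for the folate pathway. ATF4 is regulated mainly at translation and by protein turnover, which mRNA levels do not measure.

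Because many of these genes are known ATF4 targets, their promoters were searched for TGATGNAA, the core letters of the element bound by ATF4 together with a C/EBP factor, on both strands of RefSeq windows (GRCh38.p14) from 250 bases before to 50 bases after each start. Windows were found for 8 of the 10 genes. *PSPH* and *SHMT2* had none and were not searched. A match was present in *CHAC1* and *ASNS* and in none of the windows of *ATF4*, *DDIT3*, *TRIB3*, *SESN2*, *PHGDH* and *PSAT1*. Of all 35116 windows, 3.62% held a match, as did those of 3.08% of the 11714 searched genes that are in both tables. *CHAC1* and *ASNS* also had the largest differences of the set in 786O, but a link between match and difference was not tested. *PSAT1* was lower there without a match, and *ATF3*, a related gene described below, had a match and was higher. The sequences of *CHAC1* and *ASNS* are shown, with the match in capitals and 5′ to 3′ on the strand of the gene.
CHAC1: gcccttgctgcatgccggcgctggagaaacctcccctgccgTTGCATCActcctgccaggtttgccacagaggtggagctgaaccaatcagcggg
ASNS: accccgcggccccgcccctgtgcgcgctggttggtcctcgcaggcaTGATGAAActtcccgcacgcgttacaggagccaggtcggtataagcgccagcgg
The *CHAC1* stretch is chr15:40953221-40953315 on the plus strand, and its match reads in the antisense direction 202 bases before the start of the canonical transcript. The *ASNS* stretch is chr7:97872423-97872522 on the minus strand, and its match reads in the sense direction 61 bases before that start. Both matches lie upstream of the canonical transcript, and they fall in an exon of 1 of 3 GENCODE transcripts of *CHAC1* and of 2 of 17 of *ASNS*. A match of letters does not show binding.

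In the annotation of hg38 (GENCODE release 44) the genes lie on 7 chromosomes, and values are for whole genes. *ATF4* spans chr22:39519695-39522683, *DDIT3* chr12:57516588-57521737, *TRIB3* chr20:362835-397559, *CHAC1* chr15:40952962-40956512 and *SESN2* chr1:28259518-28282491. *ASNS* spans chr7:97851677-97872542, *PHGDH* chr1:119648411-119744218, *PSAT1* chr9:78297125-78330093, *PSPH* chr7:56011051-56051604 and *SHMT2* chr12:57229573-57234935.

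Checks of the libraries came first. Total TPM ran from 961437 to 973887 and 0 values were at 0. TPM keeps no depth, so the depth of a library is not known from these values, and the stated target was 3000000 reads per sample. Mitochondrially encoded genes held 6.39 to 8.00% of TPM in CAKi-1, and in 786O they held 7.47 to 8.16% in WT and 9.46 to 10.0% in A4KO. The falls of 6 of the 10 genes in 786O, given below, also passed with totals rescaled without these genes, while that of *SHMT1* did not (adjusted p = 0.061). Neither did *AMT* in 786O (limma adjusted p = 0.053), *EIF2AK3* in CAKi-1 (0.054) or the difference of *PSPH* between the lines (0.057), also given below. The renal marker *PAX8* was at 143 to 238 TPM in all libraries, while *PAX2* and *CA9* were not among the genes of the CAKi-1 table. Of 5 leukocyte markers, 2 (*PTPRC* and *CD14*) were measured, with a sum of 0.269 to 1.35 TPM. Of 4 endothelial markers, 1 was measured in CAKi-1, where *PECAM1* was at 0.209 to 0.555 TPM in WT and 1.54 to 6.17 TPM in A4KO. The 5 fibroblast markers, led by *COL1A1*, summed to 24.2 to 34.0 TPM in CAKi-1 WT and to 48.4 to 72.5 TPM in A4KO. In 786O, 2 endothelial markers summed to 1.15 to 1.75 TPM in WT and 0.555 to 0.670 TPM in A4KO, and 4 fibroblast markers to 10.2 to 14.2 TPM and 8.92 to 11.4 TPM. The renal epithelial and ccRCC markers, led by *VIM* and *KRT8*, were lower in A4KO, summing over 8 genes to 5274 to 6331 TPM in WT and 2731 to 3664 TPM in A4KO of CAKi-1, and over 10 genes to 5565 to 5760 TPM and 4251 to 4302 TPM in 786O. The part of these marker genes in the results was not tested. In CAKi-1 A4KO, replicates 1 and 4 stood apart from replicates 2, 3 and 5. The median absolute log2 difference over all genes was 0.181 to 0.206 between these sets and 0.0811 to 0.0989 within them. CAKi-1 results of the 10 genes are therefore also given for each set against the 4 WT libraries.

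Levels of the 10 genes were compared first, since TPM is scaled for transcript length. In WT cells of both lines *ATF4* ranked highest and *SHMT2* and *PSAT1* followed. The mean of *ATF4* was 211 ± 12.3 TPM in CAKi-1 (SD, n = 4) and 360 ± 3.23 TPM in 786O (SD, n = 3). By the ratio of WT means, the lines differed most in *PHGDH*. It ranked 4 of 10 in CAKi-1 WT at 49.3 ± 1.57 TPM (SD, n = 4) and last in 786O WT at 0.428 ± 0.0853 TPM (SD, n = 3). *TRIB3* ranked 9 of 10 in CAKi-1 WT at 13.5 ± 1.51 TPM (SD, n = 4) and 4 of 10 in 786O WT at 164 ± 2.44 TPM (SD, n = 3). Neighbours in the order could not be told apart in several places. In CAKi-1 WT the libraries of *PSPH* and *SESN2* overlapped, as did those of *ASNS* and *TRIB3*, and in 786O WT those of *PSAT1* and *TRIB3*. The tables of the lines were made separately, so levels are set side by side with no test between lines.

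**Figure D1:**
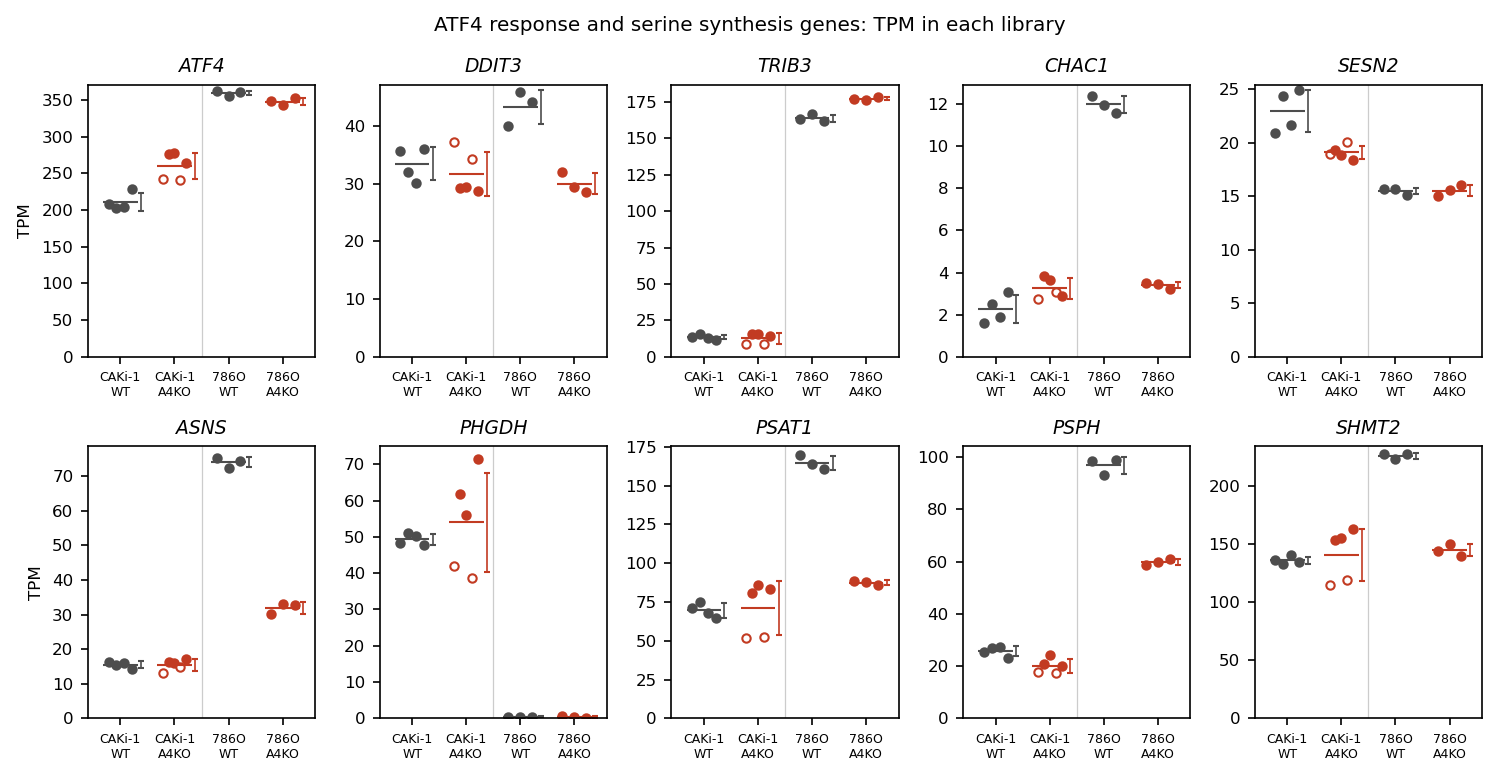
TPM of each of the 10 genes (vertical axis, linear and starting at 0) in the 4 groups, with 1 point per library, a line at the group mean and a bar of 1 SD. Open points are CAKi-1 A4KO replicates 1 and 4, which lie below all WT libraries for *PHGDH*, *PSAT1* and *SHMT2*, while in 786O the A4KO libraries of *CHAC1*, *ASNS*, *PSAT1*, *PSPH* and *SHMT2* all lie below WT.

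In 786O, loss of *ANGPTL4* went with lower mRNA of 6 of the 10 genes, among them *CHAC1*, *ASNS* and the serine enzymes *PSAT1*, *PSPH* and *SHMT2*, while *ATF4* itself differed by little. A4KO was compared with WT on log2(TPM + 1) with limma over all genes of the line, and a gene passed the test at an adjusted p of at most 0.05. It was called when its absolute log2 fold change was also at least 1. Of the 10 genes, 6 passed lower and 1 higher, and 2 were called, both lower. This stands against a background of 33.5% of all genes passing lower, 27.5% passing higher in 786O (61.0% in all), with 5.19% called lower and 2.43% called higher (7.62% in all). Of the genes called, 31.9% were higher, and 42.7% with quantile-normalized values. For 8 of the 10 genes no A4KO library fell within the WT range or the reverse, as for 66.9% of all genes. The median log2 fold change was -0.58 over the 10 genes and -0.03 over all genes.

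*CHAC1* encodes an enzyme that degrades glutathione and had the largest difference. It was at 12.4, 12.0 and 11.6 TPM in the 786O WT libraries and at 3.51, 3.46 and 3.23 TPM in A4KO. All A4KO libraries lay far below all WT libraries, and the WT mean was 3.52 times the A4KO mean. The log2 fold change was -1.56 (standard error, SE, 0.044, limma adjusted p = 1.7e-06). *ASNS*, which makes asparagine from aspartate, had 75.4, 72.5 and 74.5 TPM in the WT libraries and 30.0, 33.0 and 32.9 TPM in A4KO. The groups were again wide apart, with a WT mean 2.32 times that of A4KO and a log2 fold change of -1.19 (SE 0.049, limma adjusted p = 6.2e-06). In a test of whether the fold change itself exceeded the limit of 1 (limma treat), *CHAC1* was called (adjusted p = 3.3e-04) and *ASNS* was not (adjusted p = 0.085).

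*DDIT3*, which encodes the pro-apoptotic factor CHOP, had 40.1, 45.9 and 44.1 TPM in the 786O WT libraries and 32.04, 29.4 and 28.6 TPM in A4KO. It was lower in each A4KO library than in any WT library, with a log2 fold change of -0.51 (SE 0.067, limma adjusted p = 7.6e-04). The gene overlaps a microRNA gene and a protein-coding gene on its strand and *MARS1* and *MBD6* on the other strand in the annotation, and the strand used in counting is not stated, so its reads cannot be told apart from theirs with certainty. *TRIB3*, a pseudokinase that feeds back on ATF4, moved the other way. It had 163, 167 and 162 TPM in the WT libraries and 177, 177 and 179 TPM in A4KO, a small rise with no overlap and a log2 fold change of 0.11 (SE 0.033, limma adjusted p = 0.024). The adjusted p rose to 0.061, 0.060 and 0.066 without A4KO replicate 1, 2 or 3 and to 0.055 and 0.072 without WT replicate 1 or 3. *SESN2*, a stress-induced inhibitor of mTORC1, had 15.7, 15.7 and 15.2 TPM in the WT libraries and 15.002, 15.6 and 16.1 TPM in A4KO. Its groups overlapped, and the 95% interval of its log2 fold change ran from -0.09 to 0.10.

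*ATF4* had 362, 356 and 361 TPM in the 786O WT libraries and 349, 342 and 352 TPM in A4KO. Each A4KO library was slightly below each WT library, but the gene did not pass the test (log2 fold change -0.05, SE 0.033, limma adjusted p = 0.25). It passed with quantile-normalized values, at -0.10 (adjusted p = 0.033). Its surroundings had shifted as well. The 25 expressed genes on each side of *ATF4* on chromosome 22 differed by a median of -0.25 on the log2 scale, and with such neighbour shifts taken off each library the log2 fold change of *ATF4* was 0.20 (limma adjusted p = 0.0032). For *TRIB3* on chromosome 20 the neighbour shift was -0.27 and the centred log2 fold change 0.38 (limma adjusted p = 3.0e-04). For *PSAT1* on chromosome 9 the shift was 0.33 and the centred value -1.23. Centring left *CHAC1* at -1.78, *ASNS* at -1.23, *PSPH* at -0.51 and *SHMT2* at -0.70, all past the test.

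Among the serine enzymes of 786O, the second, the last and the serine-using step were all lower in A4KO, while the first was near the bottom of the measured range in both genotypes. *PHGDH*, the dehydrogenase that opens the pathway, had 0.487, 0.330 and 0.466 TPM in the WT libraries and 0.587, 0.479 and 0.202 TPM in A4KO. Its levels overlapped, and its mean ranked at the 15.2nd percentile of genes in WT and the 16.9th in A4KO. It did not pass (log2 fold change -0.01, 95% interval -0.28 to 0.25). At such low values log2(TPM + 1) compresses ratios, so this interval does not bound the relative change of *PHGDH*. *PSAT1*, the aminotransferase of the pathway, had 170, 164 and 160 TPM in the WT libraries and 88.7, 87.7 and 85.9 TPM in A4KO. That is a log2 fold change of -0.91 (SE 0.038, limma adjusted p = 6.8e-06), with no A4KO library near the WT range. *PSPH*, the phosphatase that releases serine, had 98.6, 93.2 and 98.9 TPM in the WT libraries and 58.7, 59.7 and 61.0 TPM in A4KO. It fell by 38.3% (log2 fold change -0.69, SE 0.040, limma adjusted p = 2.4e-05). *SHMT2* had 227, 223 and 228 TPM in the WT libraries and 144, 150 and 140 TPM in A4KO, again with no overlap (log2 fold change -0.64, SE 0.040, limma adjusted p = 3.1e-05). In the annotation *NDUFA4L2* and a long non-coding RNA overlap *SHMT2* on the other strand, and *ASNS* is overlapped by a long non-coding RNA on its own strand and a pseudogene on the other. With bulk RNA, less mRNA per cell and fewer cells that hold it cannot be told apart. Annotated pseudogenes of *ATF4*, *ASNS*, *PSAT1* and *PSPH* are not in the tables, and whether their reads were shared was not stated.

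In CAKi-1, loss of *ANGPTL4* went with higher *ATF4* and *CHAC1* and lower *SESN2* and *PSPH*, each by a small amount. Of these, only *ATF4* passed under all 18 alternatives other than treat, and *CHAC1* did not pass in 12 of them. No gene of the 10 was called, since the largest absolute log2 fold change was 0.39. With the 5 A4KO libraries against the 4 WT libraries, 2 genes passed higher and 2 lower by limma, while 17.9% of all genes passed higher, 21.1% passed lower (39.0% in all) and 3.33% were called, 2.21% higher and 1.12% lower. The groups were fully apart for 2 of the 10 genes (*ATF4* and *SESN2*), against 35.9% of all genes. The median log2 fold change of the 10 genes was -0.01, as was that of all genes.

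*ATF4* had 208, 202, 204 and 229 TPM in the CAKi-1 WT libraries and 242, 277, 278, 241 and 265 TPM in A4KO replicates 1 to 5. All A4KO libraries were above all WT libraries, and the mean was 23.5% higher (log2 fold change 0.30, SE 0.065, limma adjusted p = 0.0060). The difference was 0.37 on the log2 scale with replicates 2, 3 and 5 alone and 0.20 with replicates 1 and 4 alone, past the test in both. *CHAC1* had 1.60, 2.52, 1.90 and 3.06 TPM in the WT libraries and 2.76, 3.85, 3.65, 3.10 and 2.88 TPM in A4KO. The groups overlapped at these low levels. The log2 fold change was 0.39 (SE 0.13, limma adjusted p = 0.046). The adjusted p lay above the threshold, between 0.062 and 0.12, without A4KO replicate 2, 3 or 4 or without WT replicate 1, 2 or 3, and the gene did not pass in 12 of 18 alternatives in all. It was at 0.46 with replicates 2, 3 and 5 alone (adjusted p = 0.054) and at 0.28 with replicates 1 and 4 alone (adjusted p = 0.23). *SESN2* had 20.9, 24.3, 21.7 and 24.97 TPM in the WT libraries and 18.9, 19.3, 18.9, 20.1 and 18.4 TPM in A4KO. Each A4KO library lay below each WT library (log2 fold change -0.25, SE 0.062, limma adjusted p = 0.012). The genes around *SESN2* on chromosome 1 differed by a median of -0.20, and the neighbour-centred value was -0.05 (limma adjusted p = 0.62). With A4KO replicates 2, 3 and 5 alone *SESN2* was at -0.27 (adjusted p = 0.020), and with replicates 1 and 4 alone at -0.22 (adjusted p = 0.068).

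*DDIT3*, *TRIB3* and *ASNS* did not pass the test in CAKi-1 over all A4KO libraries. *DDIT3* had 35.7, 32.1, 30.2 and 36.0 TPM in the WT libraries and 37.3, 29.2, 29.4, 34.3 and 28.8 TPM in A4KO, with overlapping groups and a 95% interval of -0.29 to 0.13 for the log2 fold change. It was at -0.19 with replicates 2, 3 and 5 alone (limma adjusted p = 0.061) and at 0.10 with replicates 1 and 4 alone (adjusted p = 0.40). *ASNS* had 16.2, 15.5, 16.1 and 14.2 TPM in the WT libraries and 13.0, 16.2, 15.9, 14.8 and 17.2 TPM in A4KO. Its interval, from -0.19 to 0.17, did not reach the value measured in 786O. It was at 0.08 with replicates 2, 3 and 5 alone and at -0.15 with replicates 1 and 4 alone, with limma adjusted p of 0.34 and 0.15. *TRIB3* had 13.5, 15.5, 13.3 and 11.8 TPM in the WT libraries and 8.65, 15.7, 15.5, 9.07 and 14.1 TPM in A4KO. Replicates 1 and 4 were below every WT library and the other A4KO libraries lay in or just above the WT range. The 95% interval over all A4KO libraries was -0.54 to 0.29. With replicates 1 and 4 alone the gene passed lower (log2 fold change -0.55, limma adjusted p = 0.0043), and with replicates 2, 3 and 5 alone it did not pass (0.15, adjusted p = 0.21).

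*PHGDH*, *PSAT1* and *SHMT2* of CAKi-1 split by A4KO library, with replicates 2, 3 and 5 above and replicates 1 and 4 below WT. *PHGDH* had 48.3, 51.1, 50.2 and 47.7 TPM in the WT libraries and 41.9, 61.8, 55.9, 38.7 and 71.5 TPM in A4KO replicates 1 to 5. *PSAT1* had 71.0, 75.2, 67.6 and 64.4 TPM in the WT libraries and 51.5, 81.0, 86.1, 52.4 and 83.3 TPM in A4KO. *SHMT2* had 136, 133, 140 and 134 TPM in the WT libraries and 114, 153, 155, 119 and 163 TPM in A4KO. For each of these 3 genes, replicates 1 and 4 lay below all WT libraries and replicates 2, 3 and 5 above all of them. Over all A4KO libraries the log2 fold changes were 0.09 for *PHGDH*, -0.01 for *PSAT1* and 0.04 for *SHMT2*, with limma adjusted p of 0.70, 0.98 and 0.83. These averages are of libraries that differed from WT in opposite directions.

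With replicates 2, 3 and 5 alone, *PHGDH* (log2 fold change 0.34, limma adjusted p = 0.014), *PSAT1* (0.26, adjusted p = 0.013) and *SHMT2* (0.21, adjusted p = 0.0083) passed higher. With replicates 1 and 4 alone they passed lower, at -0.28 (limma adjusted p = 0.0064), -0.41 (adjusted p = 0.0034) and -0.22 (adjusted p = 0.0096). The libraries fell into these sets over all genes, and 38.8% and 53.7% of all genes passed in these comparisons. The sets were defined from the values of all genes, these included, so the p-values for each set are not independent of the split. *PSPH* had 25.5, 27.04, 27.3 and 23.03 TPM in the WT libraries and 17.9, 20.8, 24.1, 17.4 and 20.1 TPM in A4KO, with 4 of the 5 A4KO libraries below all WT libraries. Its log2 fold change was -0.35 (SE 0.097, limma adjusted p = 0.019), -0.24 with replicates 2, 3 and 5 alone (adjusted p = 0.057) and -0.52 with replicates 1 and 4 alone (adjusted p = 0.0020). Leaving out WT replicate 2 or WT replicate 3 gave an adjusted p of 0.055 in both cases. The genes around *PSPH* differed by a median of -0.13, and its neighbour-centred value was -0.22 (adjusted p = 0.044).

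**Figure D2:**
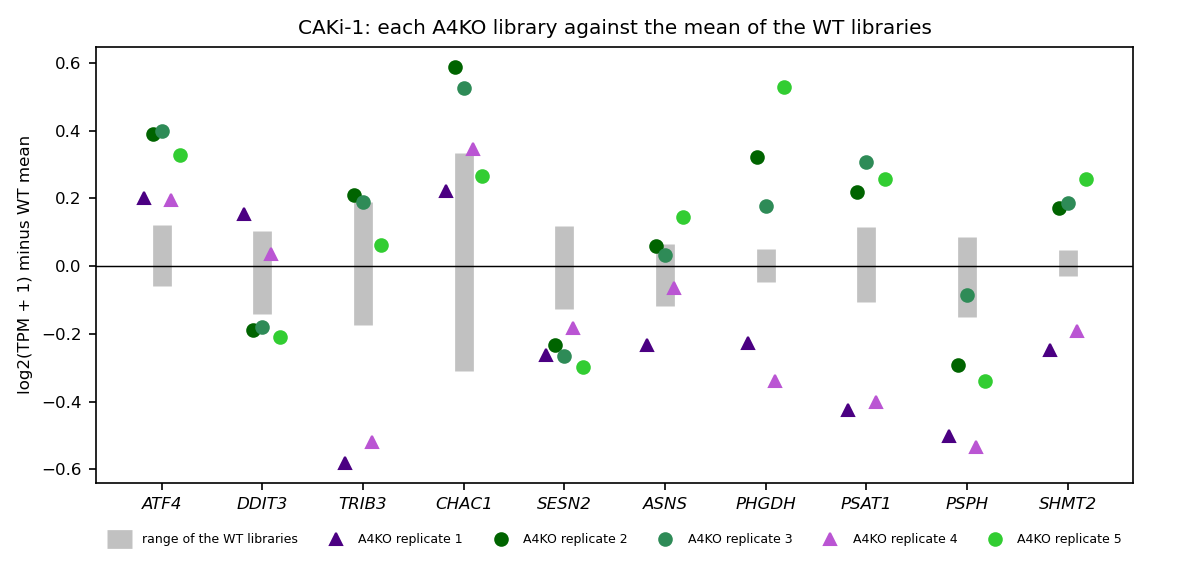
Difference of each CAKi-1 A4KO library from the mean of the WT libraries on log2(TPM + 1) (vertical axis) for the 10 genes, with grey bars for the range of the 4 WT libraries. For *PHGDH*, *PSAT1* and *SHMT2*, triangles (replicates 1 and 4) lie below the grey bars and circles (replicates 2, 3 and 5) above them, while all 5 libraries lie above the bar for *ATF4* and below it for *SESN2*.

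The lines were compared by the A4KO effect, the difference of A4KO from WT, which holds any difference between clones. A limma interaction term tested whether it differed between CAKi-1 and 786O over the 15247 shared genes, of which 55.1% passed. The effect differed for 8 of the 10 genes. The difference was largest for *CHAC1*, at 1.95 on the log2 scale (CAKi-1 minus 786O, SE 0.18, limma adjusted p = 7.1e-07). The gene was lower in 786O A4KO and slightly higher in CAKi-1 A4KO, where it did not pass in 12 of 18 alternatives. The difference was 1.18 for *ASNS* (SE 0.11, adjusted p = 8.2e-07), 0.90 for *PSAT1* (SE 0.22, adjusted p = 0.0037) and 0.68 for *SHMT2* (SE 0.15, adjusted p = 0.0013). These 4 differences, and that of *DDIT3* (0.44, adjusted p = 0.011), passed under every alternative run, including either set of CAKi-1 A4KO libraries alone. The difference of *ATF4* was 0.35 (adjusted p = 0.0032) and fell to 0.04 with neighbour-centred values (adjusted p = 0.73). For *SESN2* it was -0.25 (adjusted p = 0.020), with 0.01 after neighbour-centring and an adjusted p of 0.053 without 786O A4KO replicate 3. *PSPH* was lower in A4KO of both lines and more so in 786O, with a difference of 0.34 (adjusted p = 0.038) that did not pass in 12 of 24 alternatives, with adjusted p of 0.0505 to 0.0765 when 786O A4KO replicate 1, 2 or 3, 786O WT replicate 1 or 3, CAKi-1 A4KO replicate 2 or 5, or CAKi-1 WT replicate 1 or 4 was left out. *TRIB3* and *PHGDH* did not pass, with adjusted p of 0.42 and 0.73. With replicates 1 and 4 alone the difference of *TRIB3* passed (-0.66, adjusted p = 2.4e-04), and with replicates 2, 3 and 5 alone that of *PHGDH* passed (0.36, adjusted p = 0.048). In the other set of libraries neither did.

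**Figure D3:**
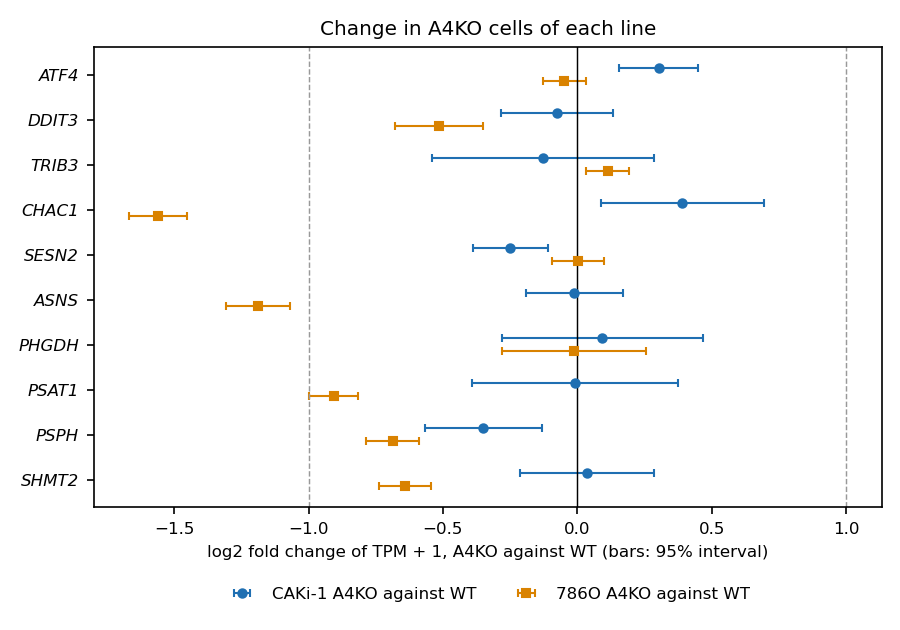
Log2 fold change of TPM + 1 in A4KO against WT (horizontal axis) for the 10 genes in CAKi-1 (circles) and 786O (squares), with 95% intervals from limma and dashed lines at the limit of 1 on either side. *CHAC1* at -1.56 and *ASNS* at -1.19 in 786O lie past the limit, and no CAKi-1 gene does.

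The genes that act before ATF4 were then examined, and the counts of this and the following lists stand against the shares of all genes that passed in each line, 17.9% higher and 21.1% lower in CAKi-1 and 27.5% higher and 33.5% lower in 786O. Of 11 kinases, phosphatase subunits and other regulators of eIF2α phosphorylation, 3 passed higher and 5 lower in CAKi-1 A4KO, and 4 passed higher and 2 lower in 786O A4KO. In CAKi-1, *EIF2AK4*, the kinase GCN2 that senses uncharged tRNA, went from 28.8 ± 1.33 TPM (SD, n = 4) to 20.4 ± 0.920 TPM (SD, n = 5), a log2 fold change of -0.48 (limma adjusted p = 1.8e-04). Values after ± are SDs throughout, over 4 WT and 5 A4KO libraries in CAKi-1 and 3 of each in 786O. *PPP1R15A*, the inducible phosphatase subunit GADD34 that ends the response, went from 33.0 ± 2.45 to 22.3 ± 0.989 TPM (log2 fold change -0.54, limma adjusted p = 1.9e-04). *NCK1*, an adaptor that lowers eIF2α phosphorylation, was higher in A4KO (log2 fold change 0.50, adjusted p = 0.0027). *EIF2AK3*, the kinase PERK of the endoplasmic reticulum, had a log2 fold change of 0.25 (adjusted p = 0.048), and it did not pass without CAKi-1 A4KO replicate 1, 3, 4 or 5 or without WT replicate 1, 2 or 3 (adjusted p 0.060 to 0.13).

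In 786O, *EIF2S1*, which encodes eIF2α itself, went from 286 ± 16.7 TPM to 132 ± 1.48 TPM (SD, n = 3 each), a log2 fold change of -1.11 (limma adjusted p = 9.8e-06). Its neighbour-centred value was -0.34 (adjusted p = 0.0019). *EIF2AK4* (0.24), *EIF2AK2* (0.30), the RNA-sensing kinase PKR, and the kinase inhibitor *DNAJC3* (0.54) passed higher, but their neighbour-centred values of 0.05, 0.10 and 0.05 did not pass. *EIF2AK3* passed lower at -0.19 (adjusted p = 0.013) and did not pass with neighbour-centred or quantile-normalized values, both -0.10. *PPP1R15A* was at 0.13 (adjusted p = 0.024) and at 0.51 after neighbour-centring. Its adjusted p was 0.053 to 0.077 without A4KO replicate 2 or 3 or any 1 of the WT libraries.

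Transcription factors that act with ATF4 gave 3 genes higher and 4 lower of 10 in CAKi-1, and 3 higher and 6 lower in 786O. *NUPR1*, a stress-induced chromatin protein, was lower in both lines. It went from 29.3 ± 1.72 to 13.8 ± 2.87 TPM in CAKi-1 (log2 fold change -1.05, limma adjusted p = 3.8e-04) and from 90.3 ± 1.54 to 25.3 ± 3.803 TPM in 786O (-1.80, adjusted p = 2.5e-05). *JDP2*, a repressor of AP-1 sites, was also lower in both, at -0.34 in CAKi-1 (adjusted p = 0.0057) and -1.92 in 786O (adjusted p = 2.5e-06, -1.16 after neighbour-centring). *CEBPD* was lower in 786O (-1.24, adjusted p = 3.2e-06) and higher in CAKi-1, where its libraries overlapped (1.16, adjusted p = 0.036). The effects differed by 2.40 (SE 0.49, interaction adjusted p = 9.2e-04). *ATF3*, an immediate responder to ATF4, rose in 786O from 3.77 ± 0.440 to 14.04 ± 1.55 TPM (1.66, adjusted p = 2.5e-05), the opposite direction to *CHAC1*, *ASNS* and *DDIT3* in the same libraries. In CAKi-1 it was at 12.1 ± 1.53 and 10.7 ± 1.21 TPM (adjusted p = 0.23).

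Of the other ATF4 response genes, 9 passed higher and 4 lower of 21 in CAKi-1, and 8 higher and 10 lower of 20 in 786O. *STC2*, a secreted glycoprotein, was lower in both lines, from 391 ± 38.5 to 90.3 ± 21.3 TPM in CAKi-1 (log2 fold change -2.13, limma adjusted p = 2.7e-05) and from 153 ± 2.64 to 44.9 ± 2.57 TPM in 786O (-1.74, adjusted p = 1.7e-06). *CBS*, which joins serine to homocysteine on the way to cysteine, was called in opposite directions. It rose in CAKi-1 from 20.6 ± 0.898 to 44.3 ± 2.92 TPM (1.07, adjusted p = 5.5e-06) and fell in 786O from 101 ± 2.42 to 25.9 ± 0.671 TPM (-1.93, adjusted p = 5.8e-07). *TXNIP*, an inhibitor of glucose uptake, also passed in opposite directions, at 1.16 in CAKi-1 (adjusted p = 0.0049, with 0.78 from replicates 2, 3 and 5 alone, below the limit of 1, and 1.72 from replicates 1 and 4 alone) and -2.51 in 786O (adjusted p = 2.4e-07). Their effects differed between the lines by the interaction term, by 3.00 for *CBS* (SE 0.080, limma adjusted p = 4.5e-12) and 3.66 for *TXNIP* (SE 0.31, adjusted p = 3.8e-07). *DDIT4*, an inhibitor of mTORC1, was called higher in CAKi-1 (1.29, adjusted p = 0.014), with 0.86 from replicates 2, 3 and 5 alone and 1.94 from replicates 1 and 4 alone, and passed lower in 786O (-0.45). The hormone subunit gene *INHBE* was lower in 786O, from 1.502 ± 0.133 to 0.163 ± 0.0530 TPM. At very low levels in CAKi-1 it passed higher, with means of 0.0634 and 0.361 TPM (0.35, adjusted p = 0.0089), and the effects differed by 1.45 (SE 0.11, interaction adjusted p = 1.7e-07). At these levels log2(TPM + 1) compresses ratios. The A4KO mean of *INHBE* was 5.70 times the WT mean in CAKi-1, and its 786O log2 fold change ran from -2.62 to -0.999 over the alternatives.

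The aminoacyl-tRNA synthetases, which charge tRNAs, were examined with tRNA export genes. Of 21 genes, 16 passed lower and 3 higher in 786O A4KO, against 33.5% and 27.5% of all genes, with a median of -0.34, and 6 passed lower and 1 higher in CAKi-1, with a median of -0.12. *WARS1* had the largest fall in 786O, from 236 ± 7.15 to 70.2 ± 2.36 TPM (log2 fold change -1.74, limma adjusted p = 1.2e-06, -1.05 after neighbour-centring). *CARS1* (-0.85, adjusted p = 1.4e-05) and *MARS1* (-0.70, adjusted p = 3.1e-05) followed. *HARS1* was at 12.3 to 14.7 TPM in 786O WT and at 50.9, 56.8 and 19.7 TPM in A4KO, so its rise of 1.46 (adjusted p = 0.016) came with wide spread. Without A4KO replicate 1 or WT replicate 1 its adjusted p was 0.052 and 0.055, at 1.27 and 1.40. In CAKi-1, *AARS1* fell from 176 ± 5.03 to 115 ± 13.2 TPM (-0.62, adjusted p = 5.4e-04) and *QARS1* rose (0.45, adjusted p = 0.0034, 0.26 after neighbour-centring), whereas it passed lower in 786O (-0.38).

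Folate enzymes take the one-carbon unit from SHMT2. In 786O, 8 of 16 folate and methionine-cycle genes passed lower and 4 higher, where 33.5% of all genes passed lower and 27.5% higher. Among the lower, *MTHFD1* (-0.77) did not pass without WT replicate 1, 2 or 3, with a pseudocount of 0.1 or after neighbour-centring (limma adjusted p 0.0502 to 0.77). *ALDH1L2*, which oxidises mitochondrial formyl-folate, went from 7.70 ± 0.253 TPM to 0.203 ± 0.228 TPM (log2 fold change -2.87, limma adjusted p = 8.4e-06, and -4.93 with a pseudocount of 0.1), near the bottom of the measured range in A4KO. *MTHFD2*, the mitochondrial dehydrogenase after SHMT2, fell from 175 ± 5.82 to 109 ± 0.899 TPM (-0.68, adjusted p = 2.2e-05). *MAT2A*, which makes S-adenosylmethionine, was lower in both lines, at -0.74 in 786O (adjusted p = 8.1e-06) and -0.85 in CAKi-1 (adjusted p = 0.0012). In CAKi-1, 6 of 16 passed lower and 1 higher, where 21.1% of all genes passed lower and 17.9% higher. There *MTHFD2* was at 129 ± 14.4 and 107 ± 23.8 TPM (-0.28, adjusted p = 0.20), with -0.65 from replicates 1 and 4 alone (adjusted p = 0.0024) and -0.04 from replicates 2, 3 and 5 alone (adjusted p = 0.75). *MTHFD2L*, an isozyme of *MTHFD2*, rose in both lines (0.41 in CAKi-1, adjusted p = 0.0051, and 0.68 in 786O, adjusted p = 0.0012, 0.27 after neighbour-centring).

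The ratio of mitochondrial to cytosolic serine hydroxymethyltransferase was higher in A4KO than in WT of CAKi-1 and lower in A4KO than in WT of 786O. *SHMT1*, the cytosolic isozyme, fell in CAKi-1 from 43.0 ± 1.37 to 29.5 ± 3.87 TPM (log2 fold change -0.54, limma adjusted p = 0.0020). All A4KO libraries were below all WT libraries, and the ratio of *SHMT2* to *SHMT1* TPM was 2.97 to 3.35 in WT and 4.41 to 5.12 in A4KO. In 786O the ratio was 1.96 to 2.03 in WT and 1.34 to 1.44 in A4KO. There *SHMT1* was at 114 ± 3.75 and 104 ± 0.386 TPM (-0.13, adjusted p = 0.029), with 0.24 after neighbour-centring and an adjusted p of 0.063 to 0.085 without WT replicate 1 or 3 or any 1 of the A4KO libraries. The ratio was described with no test.

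Downstream of SHMT2, of the 4 genes of the glycine cleavage system 1 passed higher and 1 lower in CAKi-1, and 3 higher and 1 lower in 786O. The lower gene in 786O was *AMT*, the aminomethyltransferase of the system (-0.31, limma adjusted p = 0.045), which did not pass in 9 of 13 alternatives. It failed without A4KO replicate 1 or 2 or WT replicate 1 or 2 (adjusted p 0.074 to 0.13) and after neighbour-centring (-0.02). The others were quantile normalization, a pseudocount of 0.1, the replicate block and totals rescaled without mitochondrially encoded genes (adjusted p 0.053 to 0.22). Of the higher genes, *DLD* did not pass after neighbour-centring (0.10, adjusted p = 0.070) and *GCSH* passed lower (-0.16, adjusted p = 0.019). *GLDC*, which decarboxylates glycine, was at 2.01 ± 0.308 and 1.15 ± 0.299 TPM in CAKi-1 (log2 fold change -0.49, limma adjusted p = 0.0083, and -0.77 with a pseudocount of 0.1) and at 1.43 ± 0.459 and 2.52 ± 0.131 TPM in 786O (0.55, adjusted p = 0.010, 0.88 after neighbour-centring). Of 12 genes of proline and aspartate-family synthesis, 5 passed lower and 1 higher in CAKi-1. In 786O, 4 passed lower and 3 higher.

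Genes of the endoplasmic reticulum were examined next. Of 18 chaperones and sensors of the other arms of the unfolded protein response, 5 passed higher and 1 lower in CAKi-1, and 4 higher and 9 lower in 786O. *XBP1*, the factor of the IRE1 arm, rose in CAKi-1 from 61.0 ± 11.8 to 92.6 ± 5.33 TPM (log2 fold change 0.61, limma adjusted p = 0.0026) and passed lower in 786O (-0.29). Its target *DNAJB9* passed higher in both lines, by 0.72 in CAKi-1 (adjusted p = 0.0032) and by 0.27 in 786O (adjusted p = 0.038), where *XBP1* was lower. In 786O the co-chaperones *SDF2L1* (-0.80, adjusted p = 2.4e-05) and *HYOU1* (-0.73, adjusted p = 2.9e-05) were lower, at -0.42 and -0.20 after neighbour-centring. *HSPA5*, the main chaperone BiP, was at 487 ± 3.21 and 419 ± 10.2 TPM in 786O (-0.22, adjusted p = 0.0022, -0.61 after neighbour-centring). In CAKi-1 it was at 410 ± 25.2 and 424 ± 17.5 TPM (adjusted p = 0.51), and it passed higher with quantile-normalized values (0.16, adjusted p = 0.019) and after neighbour-centring (0.18, adjusted p = 0.038).

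Amino acid transporters that ATF4 induces changed in both directions. Of 8, 2 passed higher and 2 lower in CAKi-1, and 3 higher and 4 lower in 786O. *SLC7A5*, the carrier LAT1 of large neutral amino acids, fell in CAKi-1 from 161 ± 21.4 to 53.5 ± 18.6 TPM (log2 fold change -1.63, limma adjusted p = 9.4e-04) and rose in 786O from 197 ± 9.09 to 585 ± 7.30 TPM (1.56, adjusted p = 1.7e-06), and the effects differed by -3.195 (SE 0.32, interaction adjusted p = 1.9e-06). *SLC7A11*, the cystine carrier xCT, fell in 786O from 11.4 ± 0.434 to 5.02 ± 0.121 TPM (-1.04, adjusted p = 5.8e-06) and was at 1.92 ± 0.277 and 1.74 ± 0.225 TPM in CAKi-1 (adjusted p = 0.42). *SLC1A4*, which carries serine and alanine, rose in CAKi-1 (0.61, adjusted p = 0.0031, and 0.35 with replicates 1 and 4 alone). It fell in 786O (-0.90, adjusted p = 1.7e-05), a difference of 1.51 (SE 0.15, interaction adjusted p = 1.8e-06). *SLC6A9*, the glycine carrier GlyT1, rose in 786O from 0.435 ± 0.286 to 5.02 ± 0.509 TPM (2.08, adjusted p = 4.8e-05, and 3.39 with a pseudocount of 0.1).

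Upstream of serine, glycolytic genes were examined, 10 that lead to 3-phosphoglycerate together with *PGAM1*, which uses it. In CAKi-1 A4KO, 8 of these 11 genes passed lower and 0 higher, with a median of -0.34, against 21.1% and 17.9% of all genes. *PGAM1*, which draws 3-phosphoglycerate away from serine synthesis, was at 1598 ± 48.5 and 919 ± 42.3 TPM (log2 fold change -0.80, adjusted p = 1.1e-05), and in 786O its log2 fold change was 0.10 (adjusted p = 0.041). *HK1* (-0.51, adjusted p = 6.2e-05), *PFKP* (-0.55, adjusted p = 2.5e-04) and *GAPDH* (-0.52, adjusted p = 3.5e-05) also fell, at -0.29, -0.29 and -0.32 after neighbour-centring. In 786O, 4 passed higher and 5 lower, where 27.5% of all genes passed higher and 33.5% lower. *HK2* fell from 33.7 ± 0.405 to 12.3 ± 0.00975 TPM (-1.39, adjusted p = 9.1e-07), and *ALDOA*, an aldolase, rose (0.99, adjusted p = 4.6e-06, 0.59 after neighbour-centring), whereas it passed lower in CAKi-1 (-0.45).

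**Figure D4:**
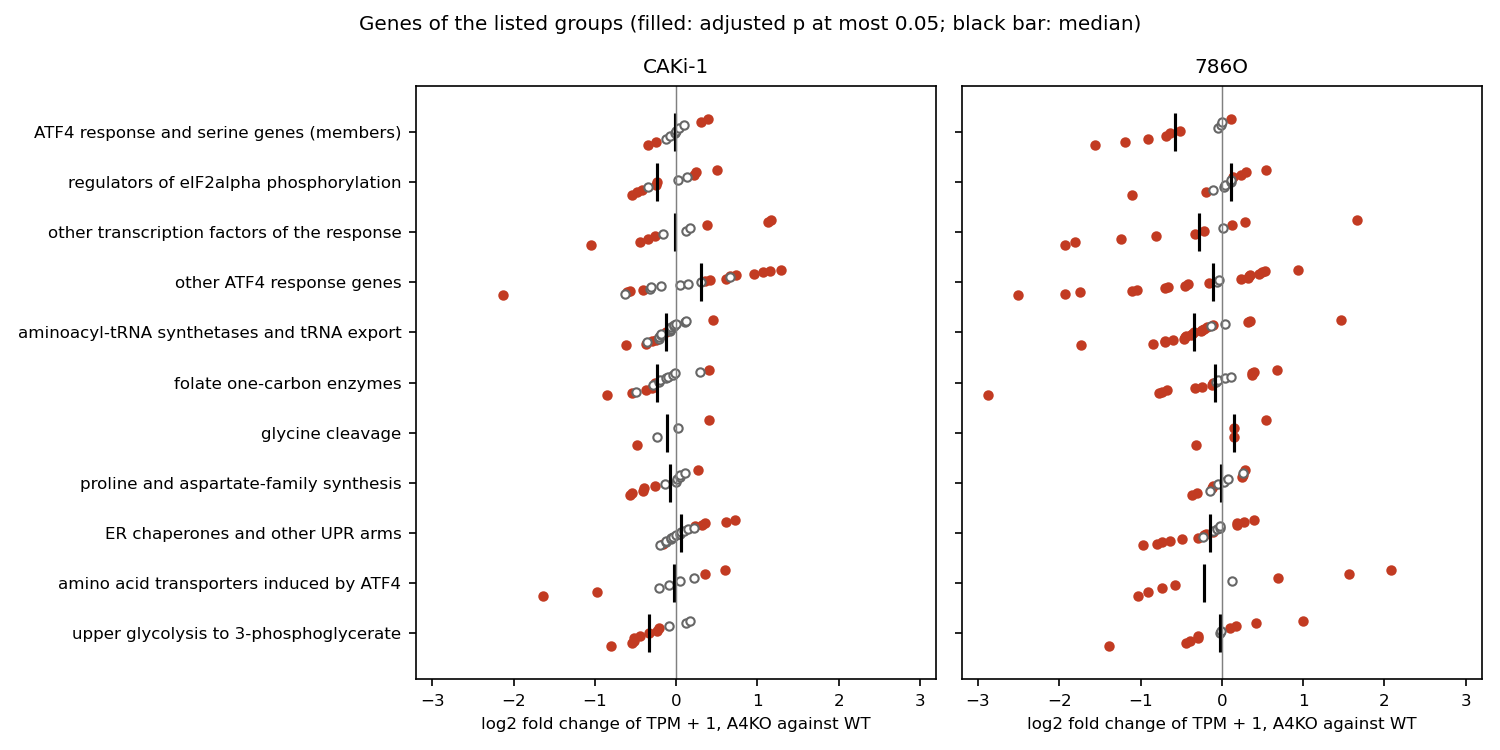
Log2 fold change of TPM + 1 in A4KO against WT (horizontal axis) for each gene of the 10 genes described and of the 10 related lists (rows) in CAKi-1 and 786O. Filled points passed at an adjusted p of at most 0.05 and black bars are row medians, which in 786O are -0.58 for the 10 genes and -0.34 for the synthetases.

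The letters TGATGNAA were found in the promoter windows of 7 of 17 genes of the synthetase list that had any, 4 of 7 amino acid transporters and 3 of 8 other transcription factors. Each of the other lists had at most 1 gene with a match, and the share over the genes in both tables was 3.08%.

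Genes with the most similar profiles were sought for the 3 members with the largest change, by the root mean square difference over the 15 libraries after each line was centred on its own mean. Of 15247 genes, those closest to *CHAC1* were *ACOT2* (0.143), *TSPAN13* (0.156) and *FOSB* (0.168). Those closest to *ASNS* were *DHRS4* (0.0759), *HSPA2* (0.0777) and *HIP1* (0.0810). Those closest to *PSAT1* were *EIF4EBP1* (0.108), which encodes a repressor of cap-dependent translation, *ERH* (0.108) and *SDF2L1* (0.111). The likeness is a description.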

How the data were processed

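RNA of CAKi-1 and 786O cells (RIN at least 8) was poly(A)-selected and sequenced as 150-base paired reads. Per the labels and methods, the authors pseudoaligned reads to hg38 with kallisto (version not given in the sources used here), and the deposited TPM values, 1 table per line, are in a unit inferred from their totals. How transcripts were summed and genes filtered is not stated. A4KO was compared with WT, line by line, on log2(TPM + 1) by two-sided tests in limma 3.58.1 (lmFit, eBayes; R 4.3.3) without a filter, and p-values were adjusted over all genes by Benjamini-Hochberg. Adjusted p are from this model. A joint fit gave the difference between lines. The code was checked on simulated data.

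The 10 genes and 10 lists were chosen with earlier results of these data known. Genes named are the members, *ANGPTL4*, *EIF2AK3*, *EIF2AK4*, *PPP1R15A*, *ATF3*, *MTHFD2*, *SHMT1*, *SLC7A11*, *HSPA5*, and from each list up to 4 genes per line with the largest log2 fold change among those that passed and whose libraries did not overlap. Some genes that meet this rule are not reported here. *FGF21* and *SLC7A3* were in neither table, *GLUL* was not in that of CAKi-1, and *BEX2* and *ASPG* were not in that of 786O. Neighbour-centred values take from each gene, library by library, the median shift among its 25 expressed neighbours on either side (GENCODE release 44). Alternatives were a pseudocount of 0.1, a filter at 1 TPM, quantile normalization, rescaling without mitochondrially encoded genes, eBayes with trend and robust options, treat, a replicate block, single libraries left out, and the sets of CAKi-1 A4KO libraries. Count models need counts and were left out.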

Additional observations from a re-analysis of the deposited data

Results flagged for a closer look

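The A4KO effect differed between the lines for 8 of the 10 genes by the limma interaction term (CAKi-1 minus 786O, log2 scale). The differences were 0.35 for *ATF4*, 0.44 for *DDIT3*, 1.95 for *CHAC1*, -0.25 for *SESN2*, 1.18 for *ASNS*, 0.90 for *PSAT1*, 0.34 for *PSPH* and 0.68 for *SHMT2*. Since 55.1% of all shared genes passed the same test, the count of 8 is set against that share.

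Among the groups of 4 or 5 libraries, 108 sets of values were examined for a library far from the others, and 1 was found. *SLC1A4* was at 3.53 TPM in CAKi-1 WT replicate 4 and at 3.00 to 3.08 TPM in the other WT libraries. Chance flags about 1 in 20 such groups.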

How the results depend on the processing

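The falls of *CHAC1*, *ASNS*, *PSAT1*, *PSPH*, *SHMT2* and *DDIT3* in 786O passed under all 13 alternatives of each that tested for any difference. Treat, which tests against the limit of 1, is not among these 13. TPM keeps no depth, so counting error could not be set beside the low values of *PHGDH* in 786O and *CHAC1* in CAKi-1. The number of all genes called was 2095 in 786O and 1077 in CAKi-1 with a pseudocount of 0.1, 697 and 112 by treat, and 1084 in CAKi-1 with replicates 1 and 4 alone. Among the 10 genes, treat called 1 in 786O, and 2 passed in CAKi-1 with neighbour-centred values. With 1 library left out, 2 to 4 passed in CAKi-1, 6 to 7 in 786O and 6 to 8 for the difference between lines. CAKi-1 gave 2 without WT replicate 2 or WT replicate 3.

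Several values changed sign, and the cause was not tested. In 786O with neighbour-centred values, 4 that had passed did so, namely *MTHFD1* (from -0.77 to 0.088), *GOT2* (from 0.26 to -0.11), *GCSH* (from 0.15 to -0.16) and *SHMT1* (from -0.13 to 0.24), beside *ATF4* (0.20), *PHGDH* (0.17) and *SESN2* (-0.058), and *PHGDH* was at 0.081 with quantile normalization. In CAKi-1 with neighbour-centred values they were *ASNS* (0.063), *ATF3* (0.025), *PSAT1* (0.055) and *SHMT2* (-0.014), and *PSAT1* was at 0.068 with quantile normalization. With replicates 2, 3 and 5 alone, *ASNS* was at 0.079, *PSAT1* at 0.26 and *TRIB3* at 0.15. With replicates 1 and 4 alone, *DDIT3* was at 0.095, *HSPA5* at -0.0084, *PHGDH* at -0.28 and *SHMT2* at -0.22. With 1 library left out, the ranges that crossed 0 were -0.097 to 0.104 for *PHGDH* and -0.020 to 0.026 for *SESN2* in 786O, -0.051 to 0.044 for *ASNS*, -0.017 to 0.200 for *PHGDH*, -0.087 to 0.096 for *PSAT1* and -0.019 to 0.106 for *SHMT2* in CAKi-1, and -0.012 to 0.213 for the difference of *PHGDH*. The difference between lines was -0.27 for *PHGDH* (replicates 1 and 4 alone), 0.041 for *TRIB3* (replicates 2, 3 and 5 alone) and 0.0085 for *SESN2* (neighbour-centred).

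Replicate numbers did not pair the libraries, as same-numbered WT and A4KO libraries had correlations of their deviations of -0.062, 0.121, -0.037 and 0.135 in CAKi-1 and -0.046, 0.020 and 0.0078 in 786O. With the replicate block, 6 of the 10 genes passed in 786O, where *TRIB3* did not (adjusted p = 0.081), 4 in CAKi-1 and 8 for the difference. *PHGDH* (-0.017) and *SHMT2* (-0.019) changed sign in CAKi-1, as did the difference of *PHGDH* (-0.0041). These values are the same as those without CAKi-1 A4KO replicate 5, which no WT library matches in number.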
